A study of Mus musculus with 6 samples.

Results

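Collagen processing and crosslinking enzymes were examined in the colon of mice prone to obesity (OP) or resistant to it (OR), through 10 genes chosen by symbol: *P4ha1*, *P4ha2*, *Plod1*, *Plod2*, *Serpinh1*, *Bmp1*, *Pcolce*, *Lox*, *Loxl1* and *Loxl2*. All 10 were found among the 17778 gene symbols listed, and all 10 were among the 13520 genes tested. The mice were wild-type male C57BL/6J mice fed a 60% fat diet for 16 weeks and killed at 21 weeks of age. Of 42 mice on this diet, the 10 with the largest weight gain were defined as OP and the 10 with the smallest as OR, and colon RNA of 3 mice of each group was sequenced, 1 library per mouse. The groups thus shared strain, genotype, sex, diet and age and differed in weight gain, which was measured on the animals and not assigned to them. Colon tissue was used, so that each value averages over all cell types it held. In such bulk samples, fewer cells of a type and less RNA per cell cannot be told apart.

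Collagen chains are modified before and after they leave the cell. In the endoplasmic reticulum, prolyl hydroxylases stabilise the triple helix, lysyl hydroxylases prepare the lysines later used for crosslinks, and a collagen-specific chaperone holds the folded helix. Outside the cell, proteinases trim the ends of procollagen so that fibrils can assemble, and lysyl oxidases then oxidise lysines so that neighbouring molecules become covalently linked. In the gut wall, fibroblasts and smooth muscle cells are major sources of fibrillar collagen, and several of the hydroxylases and oxidases are also known as targets of the hypoxia response.

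Expression was deposited by the authors in FPKM, fragments scaled by transcript length and sequencing depth, so that levels can be set side by side between genes. The sum of the FPKM values ranged from 585350 to 600028 per mouse, and read totals are not held in FPKM, so the depth is unknown. The colon label was examined with 6 markers, of which the transcription factor *Cdx2* had an FPKM between 179.5 and 245.7 in the 6 mice, whereas the small intestinal lactase *Lct* did not exceed 0.05 and the ileal *Fabp6* lay between 1.03 and 74.19. OP and OR mice were compared by limma-trend on log2(FPKM + 1) over all genes tested, with Benjamini-Hochberg q-values over all of them. Calls required a q-value below 0.2 together with a ratio of OP to OR no smaller than 1.2 or no larger than 0.83.

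None of the 10 genes was called, against 3 genes called lower in OP mice (0.0222% of those tested) and 0 called higher. The lowest q-value of limma among the 10 was 0.945. At an unadjusted p below 0.05, 3 of the 10 were lower in OP mice: the procollagen trimming enhancer *Pcolce* and the lysyl oxidases *Loxl1* and *Lox*, and 0 were higher. The same level was reached by 3.53% of all genes tested in the lower and by 0.503% in the higher direction. In *Pcolce*, *Loxl1* and *P4ha2* every OP mouse was below every OR mouse, a pattern found in 6.81% of all genes. The median log2 fold change OP minus OR of the 10 genes was -0.36, and that of all genes was -0.10. Without OP mouse 1 these medians were -0.32 and -0.01. With each of the other mice left out, the median of all genes was between -0.18 and -0.07. All 10 fold changes were below 0, as were 70.1% of all genes tested, but that of *P4ha1* was 0.12 after median-of-ratios scaling, which moved the median of all genes to 0.01. After that scaling *Pcolce* was the only one of the 10 with an unadjusted p below 0.05 and the only one without overlap. Of all genes, 3.13% and 5.44% were so in the lower direction. Without OR mouse 3, 0 of the 10 had such a p, against 1.71% of all genes in the lower direction.

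The order of the levels spanned from the chaperone to the founding lysyl oxidase. *Serpinh1* had the highest mean over the 6 mice, with an FPKM of 35.9, and was above *Bmp1* (13.2) in 6 of 6 mice. *Bmp1*, *P4ha1* (9.80), *Pcolce* (9.50) and *Plod1* (7.43) followed, and neighbours among these did not differ beyond their spread, the higher gene of each pair being higher in 4, 2 and 4 of the 6 mice. *Plod1* was above *P4ha2* (5.18) in 6 of 6 mice and *P4ha2* above *Loxl2* (3.70) in 6 of 6. *Loxl2*, *Plod2* (2.80) and *Loxl1* (2.04) were again not separated, with the higher gene ahead in 4 of 6 mice at both steps. *Lox* was the lowest, at 0.660, and below *Loxl1* in 6 of 6 mice. The plot of FPKM by mouse shows both this order and the scatter within the groups.

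**Figure D1:**
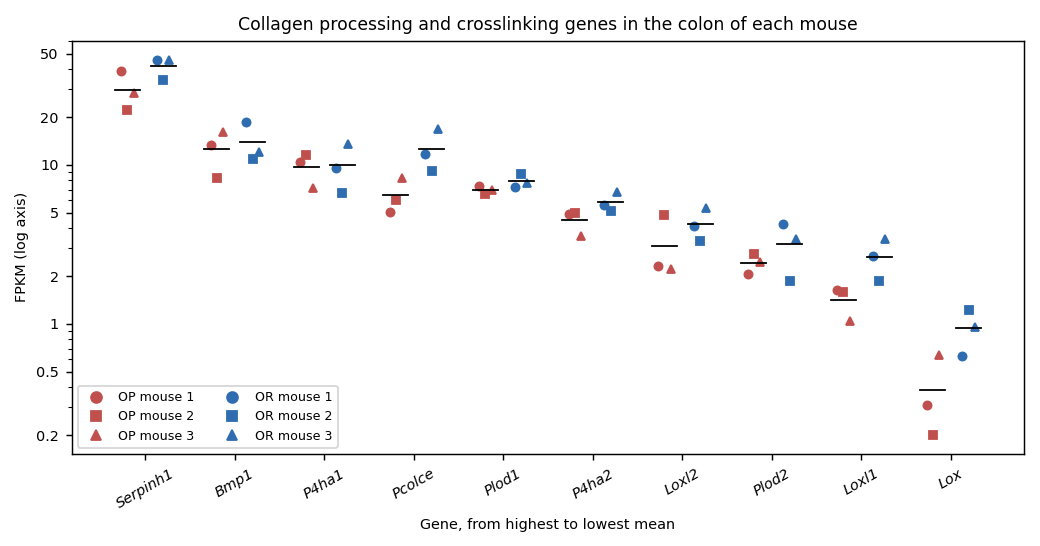
FPKM of the 10 genes in each mouse on a log axis, from the highest to the lowest mean, with OP mice in red, OR mice in blue, the mouse number given by the symbol and a black line at the mean of each group of 3. The OP and OR points of *Pcolce*, *P4ha2* and *Loxl1* do not overlap, and those of *P4ha1* and *Bmp1* are intermixed.

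Prolyl hydroxylation is carried out by tetramers in which *P4ha1* or *P4ha2* supplies the catalytic alpha subunit. *P4ha1* measured 10.36, 11.50 and 7.15 FPKM in OP mice 1, 2 and 3, against 9.59, 6.67 and 13.53 FPKM in OR mice 1, 2 and 3, the order kept for all genes. The highest and the lowest of these 6 values were both in OR mice, and the groups overlapped entirely. Its log2 fold change was -0.0094 (standard error 0.28, 95% interval -0.66 to 0.65, limma adjusted p = 0.995), an interval that leaves room for a change in either direction. *P4ha2* had 4.93, 5.02 and 3.58 in OP mice and 5.63, 5.10 and 6.79 in OR mice. Every OP mouse lay below every OR mouse, although OP mouse 2 and OR mouse 2 were nearly equal. The mean was 4.51 ± 0.807 (SD, n = 3) in OP and 5.84 ± 0.864 (SD, n = 3) in OR mice, and the log2 fold change was -0.32 (standard error 0.20, limma adjusted p = 0.945). The log2 ratio of *P4ha1* to *P4ha2* within a mouse, from FPKM + 1, was 0.94 ± 0.11 in OP mice and 0.64 ± 0.29 in OR mice (SD, n = 3), with overlapping groups and a two-sided exact permutation p = 0.2.

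Because both alpha subunits are known hypoxia targets, the 250 bases before their RefSeq start are printed together with those of *Pcolce*, the gene with the lowest fold change. The RefSeq promoter table used here (build GRCm38.p6) matched 5 of the 10 genes, and *Lox*, *Loxl1*, *Loxl2*, *Plod2* and *Bmp1* were not matched. Capitals mark the core letters of the hypoxia response element, ACGTG or GCGTG, on either strand, where a CACGTG would count on both strands.
P4ha1 (chr10:59323046-59323295, plus strand): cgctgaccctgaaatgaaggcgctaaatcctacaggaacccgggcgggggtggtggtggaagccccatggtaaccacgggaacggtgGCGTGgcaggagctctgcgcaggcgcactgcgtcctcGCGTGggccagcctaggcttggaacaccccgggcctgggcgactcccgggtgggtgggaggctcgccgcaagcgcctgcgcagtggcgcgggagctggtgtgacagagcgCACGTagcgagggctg
P4ha2 (chr11:54100674-54100923, plus strand): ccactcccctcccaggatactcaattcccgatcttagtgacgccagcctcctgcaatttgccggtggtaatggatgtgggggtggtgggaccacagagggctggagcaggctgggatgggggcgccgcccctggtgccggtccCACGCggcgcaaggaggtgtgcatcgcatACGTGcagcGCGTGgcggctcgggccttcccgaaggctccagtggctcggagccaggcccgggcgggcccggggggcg
Pcolce (chr5:137611405-137611654, minus strand): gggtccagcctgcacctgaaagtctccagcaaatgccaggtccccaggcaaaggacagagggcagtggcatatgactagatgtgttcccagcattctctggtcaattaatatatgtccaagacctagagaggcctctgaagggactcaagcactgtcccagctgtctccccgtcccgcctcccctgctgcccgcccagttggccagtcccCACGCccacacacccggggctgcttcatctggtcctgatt
In the *P4ha1* sequence 3 matches begin 163, 126 and 16 bases before the start, and in that of *P4ha2* 3 matches begin 107, 78 and 69 bases before it. *Pcolce* held 1 match, 40 bases before the start, and *Plod1* and *Serpinh1*, not printed, held 1 each. Of the 32851 RefSeq promoter windows of this length, 16.6% hold ACGTG, 28.2% GCGTG, 38.6% either of them and 6.58% at least 3 matches. G and C made up 69.6% of the *P4ha1* window, 70.0% of that of *P4ha2* and 58.8% of that of *Pcolce*. Both motifs hold the letters CG, and the shares of all windows were not matched for base composition. The matches are letters in a window and not observed binding sites.

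Lysyl hydroxylation is represented by *Plod1*, which acts on the helical part of collagen, and *Plod2*, which acts on the telopeptides that carry crosslinks. *Plod1* was the steadiest of the 10 genes, measuring 7.41, 6.54 and 6.91 FPKM in OP mice against 7.29, 8.79 and 7.65 FPKM in OR mice. OP mouse 1 lay above OR mouse 1, and OR mouse 2 was the highest. The log2 fold change was -0.16 (standard error 0.16, 95% interval -0.55 to 0.22, limma adjusted p = 0.945). *Plod2* had 2.06, 2.75 and 2.47 in OP mice and 4.26, 1.86 and 3.40 in OR mice. OR mice 1 and 3 were above all OP mice and OR mouse 2 was the lowest of the 6, so that the log2 fold change of -0.24 (standard error 0.26, limma adjusted p = 0.945) had a 95% interval from -0.85 to 0.36. It was -0.05 without OR mouse 1 and -0.49 without OR mouse 2. The ratio of *Plod1* to *Plod2* overlapped between the groups, with a difference of 0.08 on the log2 scale and a two-sided exact permutation p = 0.8.

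Among 14 other genes of the hypoxia response and glycolysis, 11 had a fold change above 0, and the median of the list was 0.21 on the log2 scale. Only the vascular growth factor *Vegfa* had an unadjusted p below 0.05, at 0.72 (standard error 0.15, limma adjusted p = 0.645), and 0 of the 14 genes were called. The pro-mitophagy gene *Bnip3* had the lowest value of the list, -0.32 (standard error 0.27). The summed FPKM of the list ranged from 1415 to 2612 in OP mice and from 1153 to 1633 in OR mice. Its largest part in every mouse was the glycolysis gene *Ldha*, with 841.6 to 1560 in OP and 645.9 to 929.4 in OR mice. *P4ha1*, *P4ha2*, *Plod1* and *Plod2* had fold changes between -0.32 and -0.0094, below the median of the hypoxia list, and whether the 2 sets differ was not tested.

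*Serpinh1* encodes the collagen-specific chaperone of the endoplasmic reticulum, a member of the serpin family that is induced by heat shock. It measured 38.83, 22.07 and 28.13 FPKM in OP mice against 45.98, 34.18 and 45.97 FPKM in OR mice. OR mice 1 and 3 were almost equal and the highest of the 6, and OP mouse 1 lay above OR mouse 2. The means were 29.7 ± 8.49 in OP and 42.04 ± 6.81 in OR mice (SD, n = 3), 1.42 times higher in the latter. On the log2 scale OP minus OR was -0.51 (standard error 0.23, 95% interval -1.04 to 0.02, unadjusted limma p = 0.0563, adjusted p = 0.945), with a two-sided exact permutation p of 0.2. The unadjusted limma p ranged from 0.00932 without OP mouse 1 to 0.167 without OP mouse 2 among the fits that left out 1 mouse, below 0.05 in 2 of the 6, and it was 0.232 with median-of-ratios scaling and 0.00616 with sample weights.

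Other heat shock genes varied mainly between single mice. The inducible chaperone *Hspa1a* measured 13.04, 19.15 and 6.00 FPKM in OP mice against 40.61, 6.07 and 233.9 FPKM in OR mice. OR mouse 3, and to a lesser degree OR mouse 1, were the highest. Of 10 heat shock genes 9 had a fold change below 0, the median was -0.36, and 0 had an unadjusted p below 0.05. *Hspa1a* had the lowest value at -1.71 (standard error 1.13) and the mitochondrial co-chaperonin *Hspe1* the highest at 0.05 (standard error 0.14). The summed FPKM of the heat shock list, in which *Hspa8* and *Hsp90ab1* were the highest, ranged from 2295 to 3208 in OP mice and from 2410 to 4554 in OR mice. Over the 6 mice, the profiles of *Loxl2*, *P4ha1* and *P4ha2* were closer to a heat shock gene than to any of the other collagen, hypoxia or member genes compared. The nearest genes were *Hspa8* for *Loxl2* and *P4ha1*, with a root mean square difference of centred log2(FPKM + 1) of 0.19 for each, and *Hsp90ab1* for *P4ha2*, with 0.13. The part of the heat shock pattern in the values of these genes was not tested.

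Trimming of the C-terminal end of procollagen is done by the metalloproteinase *Bmp1*, and *Pcolce* encodes a secreted protein that enhances it. *Bmp1* measured 13.31, 8.22 and 16.18 FPKM in OP mice against 18.53, 10.92 and 12.10 FPKM in OR mice. The groups were intermixed, and its log2 fold change of -0.14 (standard error 0.29, 95% interval -0.82 to 0.53, limma adjusted p = 0.957) was 0.11 without OP mouse 2 and 0.07 without OR mouse 1. *Pcolce* had 5.03, 6.06 and 8.29 in OP mice and 11.70, 9.19 and 16.72 in OR mice. Every OP mouse was below every OR mouse, and OP mouse 3 and OR mouse 2 were the closest pair. The mean was 6.46 ± 1.67 (SD, n = 3) in OP and 12.5 ± 3.83 (SD, n = 3) in OR mice, 1.94 times higher in OR mice. The log2 fold change was -0.85 (standard error 0.26, 95% interval -1.46 to -0.23, unadjusted limma p = 0.0137, adjusted p = 0.945), and the two-sided exact permutation p was 0.1, the smallest that 3 mice against 3 allow. Its fold change was lower than that of all but 1.72% of the genes tested. The unadjusted limma p was above 0.05 in 1 of the fits run, without OR mouse 3 (0.0553).

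The paralog *Pcolce2* had the lowest fold change of the other collagen pathway genes tested. Its FPKM was 0.36, 0.20 and 0.46 in OP mice and 1.75, 2.02 and 2.65 in OR mice. The groups were far apart, with means of 0.340 ± 0.131 and 2.14 ± 0.462 (SD, n = 3), 6.29 times higher in OR mice. The log2 fold change on the log2(FPKM + 1) scale, which understates the change of such low values, was -1.22 (standard error 0.18, limma adjusted p = 0.507). All 3 OP mice were below and all 3 OR mice above the minimum of 0.5 FPKM, so that *Pcolce2* was tested only through the OR mice and had to be higher there. *Adamts2*, which removes the N-terminal propeptide, had 0.45, 0.47 and 0.49 in OP mice and 0.94, 0.74 and 0.94 in OR mice and likewise passed the minimum only through the OR mice, with a log2 fold change of -0.35 (standard error 0.15, limma adjusted p = 0.945). *Adamts3*, *Adamts14*, *Tll1* and *Tll2* were too low to be tested.

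Crosslinking was represented by the lysyl oxidase *Lox* and its relatives *Loxl1*, known for its role in elastic fibres, and *Loxl2*, which also acts on basement membrane collagen. *Lox* measured 0.31, 0.20 and 0.64 FPKM in OP mice against 0.63, 1.22 and 0.96 FPKM in OR mice. The groups touched only where OP mouse 3 and OR mouse 1 were almost equal. *Lox* reached the minimum of 0.5 FPKM in 3 OR mice and 1 OP mouse, and the other 9 genes did so in all 6 mice. The mean was 0.383 ± 0.229 in OP and 0.937 ± 0.296 in OR mice (SD, n = 3), 2.44 times higher in OR mice. The log2 fold change was -0.49 (standard error 0.20, unadjusted limma p = 0.0408, adjusted p = 0.945), with a two-sided exact permutation p of 0.2. With a pseudocount of 0.1 in place of 1, the log2 fold change of *Lox* was -1.16.

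*Loxl1* measured 1.63, 1.59 and 1.04 FPKM in OP mice against 2.68, 1.86 and 3.42 FPKM in OR mice. Every OP mouse was below every OR mouse, and OR mouse 2 lay close to the OP mice. The means were 1.42 ± 0.330 and 2.65 ± 0.780 (SD, n = 3), 1.87 times higher in OR mice. The log2 fold change was -0.58 (standard error 0.22, unadjusted limma p = 0.0341, adjusted p = 0.945), with a two-sided exact permutation p of 0.1. *Loxl2* had 2.30, 4.81 and 2.23 in OP mice and 4.12, 3.32 and 5.39 in OR mice, where OP mouse 2 was second only to OR mouse 3. Its log2 fold change was -0.40 (standard error 0.29, 95% interval -1.07 to 0.28, limma adjusted p = 0.945), and without OP mouse 2 it was -0.67 with an unadjusted limma p of 0.0312. The log2 ratio to *Lox* differed between OP and OR mice by -0.09 for *Loxl1* and by 0.09 for *Loxl2*, with overlapping groups and two-sided exact permutation p-values of 0.5 and 0.9. The unadjusted limma p of *Lox* was above 0.05 without OP mouse 1, OP mouse 2, OR mouse 2 or OR mouse 3, and that of *Loxl1* without OP mouse 2, OP mouse 3, OR mouse 1 or OR mouse 3.

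The other enzymes, chaperones and export factors of the collagen pathway were 29 listed genes, of which 23 were tested. All 23 had a fold change below 0, with a median of -0.26, but after median-of-ratios scaling 4 of them (*P4hb*, *Tmem38b*, *Mia2* and *Sec23a*) were above 0. Without OP mouse 1 the median was -0.12, and with each of the other mice left out it was between -0.36 and -0.23. In the fit over 6 mice without that scaling, 0 of the 23 were called. Leaving aside *Pcolce2* and *Adamts2*, which passed the minimum only through the OR mice, 3 of the remaining 21 had an unadjusted p below 0.05, and the median of these 21 was -0.26. The 3 genes were the transglutaminase *Tgm2* at -0.47 (standard error 0.16), the endoplasmic reticulum protein *Rcn3* at -0.53 (standard error 0.19) and the collagen-binding *Sparc* at -0.57 (standard error 0.22). *P4hb*, the shared beta subunit of prolyl hydroxylase and a general disulfide isomerase, had a mean of 230.0 ± 12.1 FPKM in OP and 243.3 ± 28.4 in OR mice (SD, n = 3) and a fitted log2 difference of -0.08 (standard error 0.13). The 9 tested genes of the hydroxylation and glycosylation steps, from *P3h3* at -0.49 (standard error 0.24) to *P4ha3* at -0.05 (standard error 0.21), held 0 with an unadjusted p below 0.05. Of the folding and export genes, the transcription factor *Creb3l1* had the lowest value at -0.91 but a standard error of 0.89, and *Tmem38b* the highest at -0.02 (standard error 0.18). The plot of log2 fold changes shows the 10 genes above these others. The highest value of the other crosslinking genes was that of *Loxl3*, -0.21 (standard error 0.17).

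**Figure D2:**
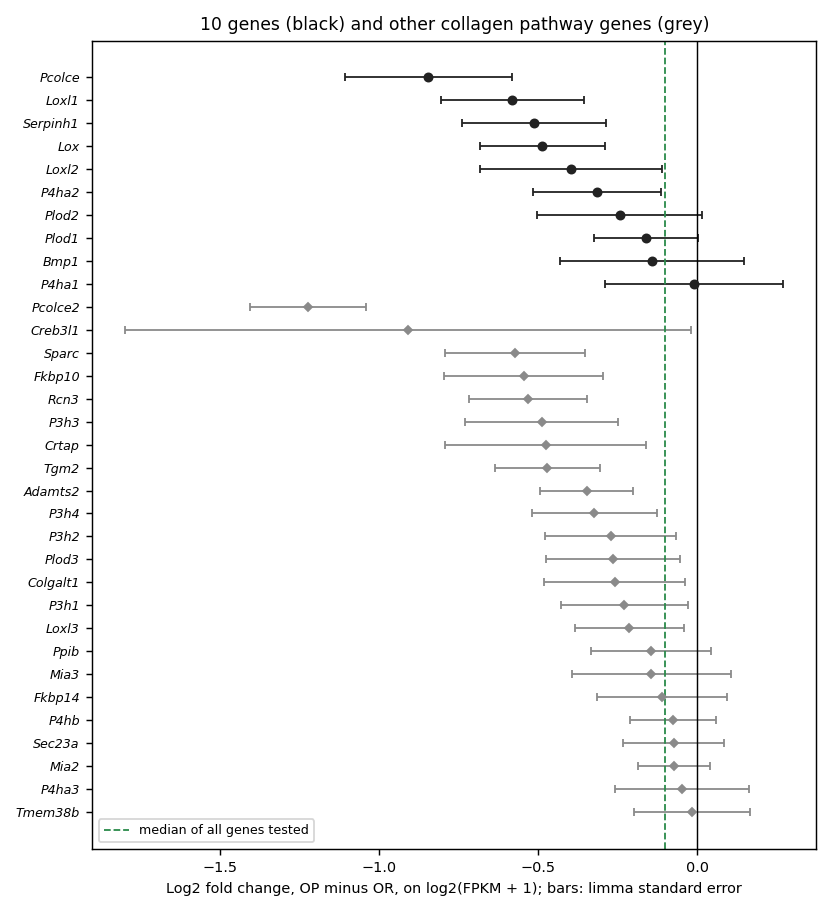
Log2 fold changes OP minus OR with limma standard errors on the log2(FPKM + 1) scale for the 10 genes (black circles) and the 23 other collagen pathway genes tested (grey diamonds), each ordered from lowest to highest. *Pcolce* at -0.85 and *Pcolce2* at -1.22 are the lowest of their sets, and the dashed line marks the median of all genes tested at -0.10.

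The substrates also had fold changes below 0, which was known from an earlier analysis of these mice when the present genes were chosen. Of 8 fibrillar collagen genes 7 were tested and all 7 had a fold change below 0, with a median of -0.53 and 5 at an unadjusted p below 0.05. They ran from *Col3a1* at -0.89 (standard error 0.15) to *Col11a2* at -0.10 (standard error 0.16). *Col1a1* (-0.89), *Col1a2* (-0.84), *Col5a1* (-0.53) and *Col5a2* (-0.51) were between them and had an unadjusted p below 0.05. Of the basement membrane collagens IV, 4 of 6 genes were tested, and *Col4a1* (-0.62), *Col4a2* (-0.45) and *Col4a5* (-0.77) had an unadjusted p below 0.05. Of the elastin genes, *Fbln5* (-0.92) and *Efemp2* (-0.48) did so and *Eln* (-0.48, standard error 0.32) did not. By the nearest profile over the 6 mice, *Pcolce* was closest to *Col1a1* (root mean square difference of centred log2 values 0.14), *Plod2* to *Col4a2* (0.18), *Serpinh1* to *Efemp2* (0.18), *Loxl1* to *P4ha2* (0.16), *Lox* to *Tgm2* (0.19), *Plod1* to the export gene *Mia2* (0.079) and *Bmp1* to *Bnip3* (0.17). The heat shock gene *Hspa8* was almost as near to *Plod2* (0.181, against 0.179 for *Col4a2*). *Plod1* itself varied little, with a root mean square deviation of 0.12 from its mean.

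**Figure D3:**
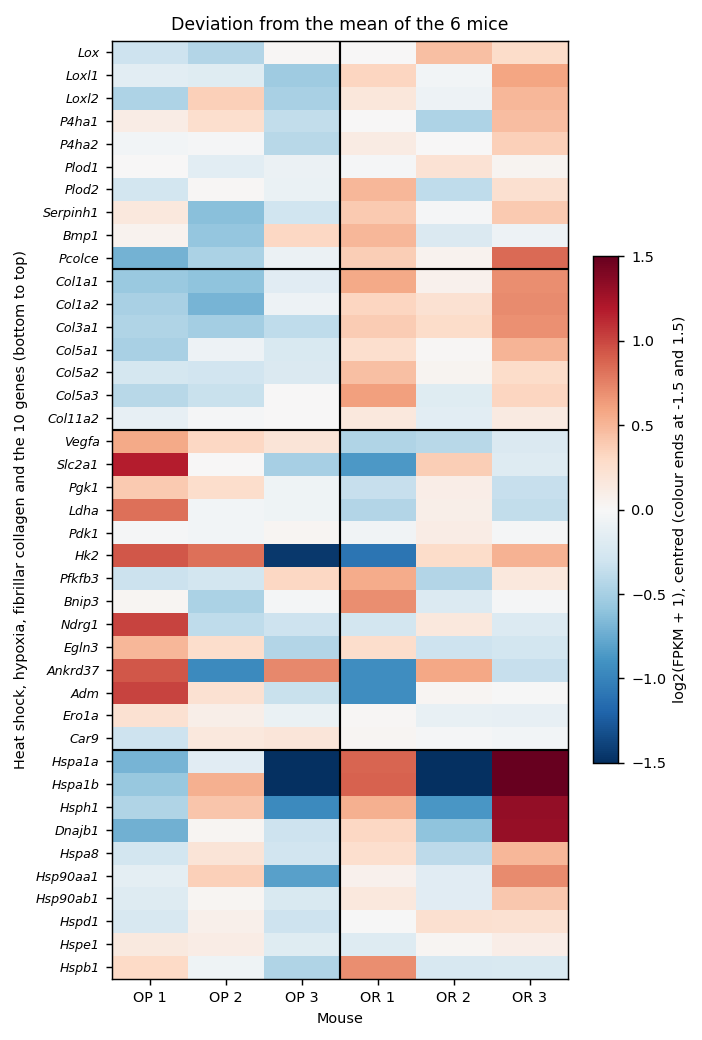
Deviation of log2(FPKM + 1) from the mean of the 6 mice for the 10 genes, 7 fibrillar collagens, 14 hypoxia genes and 10 heat shock genes, from top to bottom, with 1 column per mouse. Red is above and blue below the mean, and the fibrillar collagens are mostly blue in the 3 OP mice, whereas the heat shock genes are darkest red in OR mouse 3.

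The level of each enzyme was therefore also set against fibrillar collagen mRNA in the same mouse, a log2 ratio in which the scaling between mice enters only through the pseudocount. The reference was the mean of log2(FPKM + 1) of *Col1a1*, *Col1a2* and *Col3a1*. Since the same reference is subtracted from every gene, each difference OP minus OR is the fold change of the gene shifted by 1 constant. The order of the genes therefore repeats that of their fold changes. The ratio and its exact test can differ between the groups through the collagens alone. The ratio was higher in OP than in OR mice on average for 10 of 10 genes, as it was for 98.4% of all genes tested, since these collagens were low in OP mice. Every OP mouse was above every OR mouse for 3 of the 10 genes, *P4ha1*, *Plod1* and *Plod2*, and the same was found for 74.7% of all genes. *Plod1* had ratios of -0.37, -0.42 and -0.75 in OP mice and of -1.31, -0.84 and -1.53 in OR mice, which differed by 0.71. The exact permutation test, two-sided, gave p = 0.1, its smallest possible value. *P4ha1* differed by 0.87 and *Plod2* by 0.63, with the same p from the exact test.

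At the other end, the ratio of *Pcolce* to the collagens was -0.63 ± 0.19 in OP and -0.65 ± 0.15 in OR mice (SD, n = 3). This difference of 0.03 was the smallest of the 10, with a two-sided exact permutation p = 1. *Loxl1* (0.29), *Serpinh1* (0.36) and *Lox* (0.39) also overlapped between the groups, with exact permutation p-values of 0.4, 0.2 and 0.4, and the difference of *Lox* was -0.22 with a pseudocount of 0.1. *Bmp1*, *P4ha2* and *Loxl2* lay between, at 0.73, 0.56 and 0.48. The plot of these ratios shows the points of *Pcolce* on 1 level in both groups and those of *P4ha1* and *Plod1* apart.

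**Figure D4:**
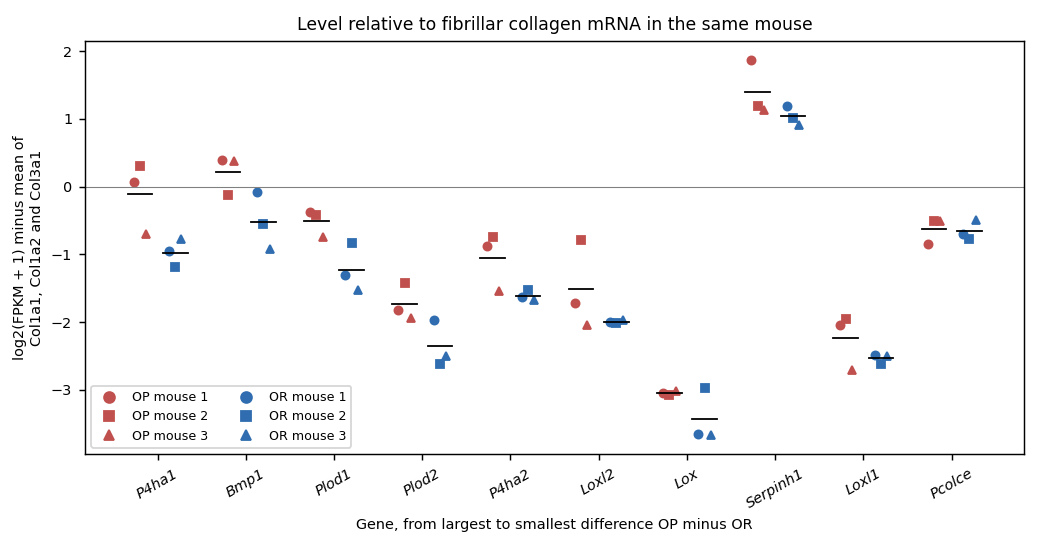
Log2(FPKM + 1) of each gene minus the mean of *Col1a1*, *Col1a2* and *Col3a1* in the same mouse, with OP mice in red, OR mice in blue and black lines at the group means of 3 mice, ordered from the largest to the smallest difference. *P4ha1* (difference 0.87) is at the left end and *Pcolce* (0.03) at the right end.

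Single mice weighed differently on the 10 genes. The highest of the 6 values was in an OR mouse for 10 of 10 genes, against 51.7% of all genes tested, and it was in OR mouse 3 for 5 of them (*Loxl1*, *Loxl2*, *P4ha1*, *P4ha2* and *Pcolce*), against 21.9% of all genes. The lowest value was in OP mouse 2 for 4 genes, in OP mouse 3 for 3, in OR mouse 2 for 2 (*P4ha1* and *Plod2*) and in OP mouse 1 for 1. Averaged over the 10 genes, centred log2(FPKM + 1) was -0.16, -0.19 and -0.20 in the OP mice, which were close together, and 0.24, -0.05 and 0.36 in the OR mice. OR mouse 2 was thus nearer to the OP mice than to the other OR mice.

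Markers of several cell types moved with the groups. Of 7 fibroblast markers, 7 had a fold change below 0, with a median of -1.14, and 4 (*Dcn*, *Dpt*, *Mfap5* and *Pi16*) an unadjusted limma p below 0.05. *Pdgfra* (-0.59, standard error 0.48), *Lum* and *Thy1* overlapped between the groups. The summed FPKM of the list, in which *Dcn* and *Dpt* were the highest, was 48.4 to 110.7 in OP mice and 157.5 to 381.9 in OR mice. The blood endothelium list was lower in 9 of 9 genes (median -0.79, summed FPKM 12.9 to 21.1 in OP and 24.6 to 43.3 in OR mice), the lymphatic list in 4 of 4 (median -0.76, 3.62 to 7.62 against 9.50 to 20.1) and the macrophage list in 8 of 8 (median -0.96, 32.6 to 89.3 against 96.6 to 129.2). In these 3 lists an unadjusted p below 0.05 was found for 9, 3 and 8 genes, and all genes of the 4 lists stayed below 0 after median-of-ratios scaling. The 8 smooth muscle markers, all below 0 but 2 of them above 0 after that scaling, had a median of -0.31 with overlapping sums of 1441 to 2304 in OP and 1783 to 3292 in OR mice. Of 7 adipocyte markers, 6 were below 0, and 5 of the 7 genes, the defining *Adipoq* among them, were at 0 in OP mouse 2. The summed FPKM of this list ranged from 12.6 to 66.4 in OP and from 38.1 to 228.5 in OR mice. Of 8 epithelial markers 2 were below 0, with a median of 0.06, and 1 was below 0 after that scaling. The part of these cell types in the values of the 10 genes was not tested.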

How the data were processed

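Colon RNA of 3 OP and 3 OR mice was sequenced by the authors as strand-specific libraries of enriched mRNA on the DNBSEQ platform. SOAPnuke was used for read filtering, Bowtie2 for alignment to a reference gene set and RSEM for quantification, and the submitters' processing notes also name HISAT2 (2.0.4) and GRCm39. The values deposited by the authors are FPKM per gene symbol, 1 column per mouse, rounded to 2 decimals. Read totals were not given in the file used, so that counting error is unknown and the number of mice limits the precision.

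Groups and mouse numbers were taken from the labels. A gene was tested if 3 or more mice reached an FPKM of 0.5. OP minus OR was estimated on log2(FPKM + 1) with limma-trend and no covariate (R 4.3.3, limma 3.58.1). The fit was also run on values simulated independently for each gene and mouse. Such values hold no pattern shared by many genes of 1 mouse, so that run cannot show how the fit handles one. Intervals of 95% are from the same fit. Single values were compared by two-sided exact permutation tests over the 20 arrangements of the 6 mice (NumPy 2.4.6), whose smallest p is 0.1. These were 10 collagen ratios, 4 paralog ratios and 10 comparisons of log2(FPKM + 1), whose p-values are unadjusted.

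The 10 genes and all lists, including the marker lists, were chosen with earlier results of these data known. Named genes are the 10 genes, the genes of the other collagen, hypoxia and heat shock lists with an unadjusted p below 0.05 or the lowest or highest fold change of their list, and the nearest profiles. *P4hb*, *Eln*, *Ldha*, the untested genes and the marker genes were named in addition, after their values were seen. The same-numbered mice are different animals. Promoter sequences are from RefSeq (GRCm38.p6), and no coordinate of the authors' build was used. The alternatives tried were median-of-ratios scaling, limma without trend, rescaling to TPM, a pseudocount of 0.1, other filters, sample weights, a replicate block and each mouse left out. Fibroblast markers as the reference of the ratios, and the alternatives for the other pathway genes, were chosen after seeing the data.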

Additional observations from a re-analysis of the deposited data

How the results depend on the processing

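The count of genes called lower in OP mice, 3 in the fit over 6 mice, was 0 with median-of-ratios scaling, 0 after rescaling to TPM, 0 with a pseudocount of 0.1, 0 when all genes detected in any mouse were tested, 0 with at least 1 in all 6 mice, 5 with limma sample weights and 0 to 1 with each mouse left out, while 0 genes were called higher in each of these fits. None of the 10 genes was called in any of them, where *Lox* did not pass the filter of at least 1 in all 6 mice. The count of the 10 genes at an unadjusted limma p below 0.05, which was 3, was 1 with median-of-ratios scaling and 4 with limma sample weights. It was 0 to 3 with each mouse left out (0 without OR replicate 3). Of all genes, 3.53% reached this level in the lower direction over 6 mice, 3.13% with median-of-ratios scaling and 4.85% with sample weights. With each mouse left out the share was 1.71% (without OR mouse 3) to 8.17% (without OP mouse 3). The count without overlap, also 3, was 1 with median-of-ratios scaling (*Pcolce*, with 5.44% of all genes) and 4 after rescaling to TPM (with 6.69% of all genes). It was 3 to 5 with each mouse left out (5 without OP mouse 1, OR mouse 1 or OR mouse 2), where the share of all genes, 6.81% over 6 mice, was 8.03% to 23.1%. The median of the 10 genes was between -0.44 and -0.23 in all fits. Minus the median of all genes in the same fit, it was -0.25 over 6 mice. This excess lay between -0.32 (pseudocount of 0.1) and -0.11 (without OP mouse 3), and was -0.15 without OR mouse 3. The fold change of *P4ha1* was 0.12 with median-of-ratios scaling and -0.24 to 0.22 with each mouse left out, and that of *Bmp1* was -0.34 to 0.11. Leaving out 1 mouse also moved the fold change of *P4ha2* to -0.19 (without OP mouse 3), of *Plod1* to -0.09 (without OR mouse 2), of *Serpinh1* to -0.32 (without OP mouse 2) and of *Loxl2* to -0.25 (without OP mouse 3 or OR mouse 3). The count of genes whose collagen ratio did not overlap, 3, was 3 to 7 with each mouse left out (7 without OP mouse 3, 5 without OR mouse 1 or OR mouse 2), against 75.4% to 85.3% of all genes. It was 2 with a pseudocount of 0.1 and 3 with fibroblast markers as the reference (*Lox*, *Plod1* and *Bmp1*). These markers were also lower in OP mice (median -1.14). For these settings the share of all genes was not computed, so the counts cannot be read as particular to the 10 genes. The count of the 4 paralog ratios without overlap, 0, was 0 to 2 with each mouse left out (2 without OR mouse 2, 1 without OP mouse 3 or OR mouse 3). The cause of these changes was not tested.

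With the replicate block, 0 genes were called lower in OP mice. In that fit 2 of the 10 genes, *Serpinh1* and *Pcolce*, had an unadjusted limma p below 0.05, against 3.03% of all genes in the lower direction. With same-numbered mice as pairs, the collagen ratio was higher in the OP mouse of all 3 pairs for 6 of the 10 genes, as it was for 83.4% of all genes. The correlations of the deviations from the group means were -0.144, -0.157 and 0.0709 for the same-numbered pairs, with a mean of 0.0394 between mice of other numbers. Deviations within a group sum to 0, so these correlations depend on each other. They cannot decide whether same-numbered mice shared a batch.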

Other observations

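Some lists not described above showed single mice apart from the others. Of the 6 lymphocyte markers 5 were tested, and the B cell gene *Cd79a* measured 5.67, 3.05 and 39.83 FPKM in OP mice against 5.34, 3.51 and 4.2 FPKM in OR mice, so that OP mouse 3 stood apart. The 3 mesothelial markers tested had a median log2 fold change of -0.28 and summed FPKM values of 1.64 to 7.77 in OP and 4.13 to 8.09 in OR mice. The 8 enteric neuron and glia markers had a median of -0.12, with 4 genes below and 4 above 0.

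Some epithelial genes varied widely within both groups. The goblet cell mucin *Muc2* measured 17.59, 563.4 and 188.4 FPKM in OP mice against 154.4, 275.7 and 933.2 FPKM in OR mice. The colonocyte carbonic anhydrase *Car1* had 14580, 1054 and 4836 in OP mice and 5255, 15720 and 6339 in OR mice. The ileal bile acid binding protein *Fabp6*, a small intestinal marker, had 7.0, 1.03 and 35.11 in OP mice and 74.19, 11.17 and 45.90 in OR mice.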
